A study of Mus musculus with 6 samples.

Results

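The genes of 10 peptide hormones other than insulin were examined for binding of the transcription factor MafA and for the histone mark H3K4me3. They were Gcg, Sst, Ghrl, Ppy, Pyy, Npy, Ucn3, Cck, Nts and Vgf, taken as a list from 21883 protein-coding genes placed on chromosomes by RefSeq on GRCm38, all up to 10 kb long. Every peak in the gene body or within 50 kb either side was taken. The gene table holds no exons, so a place inside a gene is not given as exon or intron. The assay was CUT&RUN: a nuclease is tethered to an antibody inside permeabilised cells, and the DNA it frees is sequenced. All libraries were made from MIN6 cells with no treatment or genetic change named, a line grown from a mouse insulinoma whose cells carry a viral T antigen under the insulin promoter. The series had 3 groups of 2 libraries: endogenous MafA, H3K4me3 for a positive control, and IgG for a negative one. Peak lists of the 4 MafA and H3K4me3 libraries were analysed, and no IgG file was used here. Nothing in the labels says whether replicates came from separate cultures, so their spread may be technical.

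MafA is a basic leucine zipper factor of the large MAF family that activates insulin genes in mature beta cells. In the islet each hormone marks a cell type: glucagon the alpha cell, somatostatin the delta cell, pancreatic polypeptide the PP cell and ghrelin the epsilon cell. The other peptides act within the islet, in the gut or in nerves. H3K4me3 is a mark of nucleosomes around active and poised start sites, so it was used here to describe the state of each gene's start. No RNA was measured.

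MafA regions found in both replicates lay over the annotated promoters of Gcg, Npy and Cck. The 250 bases before each start site are given with those of Sst, which had no peak there, so that the glucagon and somatostatin promoters can be compared. They come from RefSeq on GRCm38.p6 and run 5′ to 3′ on the gene's strand, ending at the base before the start site. Capitals mark matches to the motifs GCTGAC (a MAF core) and its longer form TGCTGAC, to the cyclic AMP response element TGACGTCA and to the AP-1 site TGAGTCA, on either strand. The Gcg stretch is chr2:62483654-62483903, minus strand. That of Cck is chr9:121495695-121495944, minus strand. That of Npy is chr6:49822460-49822709, plus strand, and that of Sst is chr16:23890845-23891094, minus strand, which lies within the span the gene table gives for Sst because that span begins farther upstream.
Gcg: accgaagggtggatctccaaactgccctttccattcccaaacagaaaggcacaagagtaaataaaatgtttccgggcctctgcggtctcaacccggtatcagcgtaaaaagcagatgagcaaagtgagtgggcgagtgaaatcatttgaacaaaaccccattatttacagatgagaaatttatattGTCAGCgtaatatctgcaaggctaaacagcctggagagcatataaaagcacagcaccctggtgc
Cck: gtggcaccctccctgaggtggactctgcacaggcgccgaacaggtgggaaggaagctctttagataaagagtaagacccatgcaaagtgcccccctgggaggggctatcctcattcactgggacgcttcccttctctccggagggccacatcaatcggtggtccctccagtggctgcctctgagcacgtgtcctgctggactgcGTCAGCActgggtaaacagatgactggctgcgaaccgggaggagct
Npy: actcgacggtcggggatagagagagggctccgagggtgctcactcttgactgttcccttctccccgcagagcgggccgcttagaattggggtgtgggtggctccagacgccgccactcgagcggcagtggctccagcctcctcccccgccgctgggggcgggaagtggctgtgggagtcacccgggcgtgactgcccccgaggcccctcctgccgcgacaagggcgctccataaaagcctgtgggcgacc
Sst: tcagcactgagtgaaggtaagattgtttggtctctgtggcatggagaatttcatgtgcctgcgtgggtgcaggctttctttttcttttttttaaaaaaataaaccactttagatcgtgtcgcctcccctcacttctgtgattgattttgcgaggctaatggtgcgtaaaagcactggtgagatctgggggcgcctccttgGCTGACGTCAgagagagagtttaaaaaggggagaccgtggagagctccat

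In the Gcg promoter the core was found once, at bases -64 to -59 counted from the start site, on the opposite strand. In the Cck promoter the half-site TGCTGAC (reverse complement GTCAGCA) lay at -46 to -40. The Sst promoter held the cyclic AMP response element at -48 to -41, and its core match at -50 to -45 overlapped that element. The Npy promoter held none of the motifs searched. Promoter windows of 300 bases, which add 50 bases after the start, were at hand for 9 of the 10 genes. There were 13 of them, since Ghrl had 4 start sites and Pyy had 2. A gene was counted when any of its windows held the motif, while the shares are of single windows. Counts and shares are therefore not on the same basis. TGCTGAC was found in those of 2 genes, Cck and Ppy, and in 4.30% of 21262 promoter windows of protein-coding genes. The longer MAF site, TGCTGA followed by any 4 bases and GC, was found in none of the 9 and in 1.40% of windows. TGACGTCA was found at Sst alone among the 9 and in 2.23% of windows, and TGAGTCA at Nts alone and in 4.66%. The 6-letter core was chosen after the sequences had been read. It was found at 6 of the 9 genes and in 15.5% of windows, and in 19.8% of the 3514 windows that overlapped a MafA region. In those 3514 windows TGCTGAC was found in 5.89%, the longer MAF site in 2.22%, TGACGTCA in 4.27% and TGAGTCA in 3.47%. A higher share there was thus not particular to MAF motifs. Of the 6 genes with the core, Gcg and Cck had a MafA region over the promoter, and Ghrl, Ppy, Pyy and Sst had none. These matches describe letters and do not show a bound site.

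The lists held 16020 and 16904 peaks for H3K4me3 and 33013 and 42747 for MafA, in replicates 1 and 2. A region was counted when peaks of both replicates overlapped by at least 1 bp, which gave 25894 MafA and 15573 H3K4me3 regions. The fold enrichment of a peak is the authors' own value, the pileup at its summit over the modelled background there. Whole fragments at the summits were recovered from fold enrichment and p-value, with medians of 25 and 46 for MafA in replicates 1 and 2. Many MafA peaks thus rest on few fragments. A low fold enrichment need not mean few fragments, as the replicate 2 peak over the Npy promoter had 3.70 from 182. The cell type lists hold some of the 10 genes (Gcg for alpha, Sst for delta and Ucn3 for beta cells). An H3K4me3 region lay within 1 kb of the start of 8 of 10 beta cell genes, 6 of 7 alpha cell genes, 2 of 4 delta cell genes, 0 of 4 acinar genes and 0 of 2 liver genes, against 57.0% of all protein-coding genes. A MafA region with a mean fold enrichment of at least 10 lay within 50 kb of all 10 of the beta cell genes, 2 of the 7 alpha cell genes, none of the delta or acinar genes and both liver genes, against 19.5% of all genes.

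MafA regions found in both replicates lay in or within 50 kb of 7 of the 10 peptide genes: Gcg, Sst, Ghrl, Npy, Ucn3, Cck and Vgf. Such a region was found at 66.1% of all protein-coding genes and at 50.6% of the 7925 genes up to 10 kb long, the length class that holds all 10. The number of peptide genes with a region was therefore near the background. Within 10 kb lay a region at 6 of the 10 (44.0% of all genes), and in the gene body at 5 of the 10 (31.7%). A region that overlapped no H3K4me3 lay near the same 7 genes (49.4% of all genes). An H3K4me3 region lay within 50 kb of 8 of the 10, all but Sst and Nts (75.4% of all genes, 59.3% of the short ones). Ppy, Pyy and Nts had no MafA region. A region with a mean fold enrichment of at least 10 lay near 4 of the 10, Gcg, Ucn3, Cck and Vgf, against 19.5% of all genes and 11.9% of those up to 10 kb. Cck and Vgf were close to that limit: without MafA replicate 2 the count was 2 (Gcg and Ucn3), without MafA replicate 1 it was 5, and with 50% reciprocal overlap it was 1 (Ucn3). Within 1 kb of the start lay a MafA region at 4 of the 10 (19.9% of all genes, 12.1% of the short ones) and an H3K4me3 region at 4 of the 10 (57.0% and 38.5%). Both readouts named Gcg, Npy, Cck and Vgf, and 19.1% of all genes had both. For Vgf the promoter table had no start site, and either end of the gene was taken. Its MafA region lay at the lower end and its H3K4me3 region at the upper end. Gcg, Npy and Cck thus had both at 1 start site, and for Vgf this cannot be told without a start site. The windows held 20 distinct MafA regions, with mean fold enrichments from 2.42 to 16.1 and a median of 5.32, beside a median of 5.75 over all MafA regions. In the plot of peaks by distance, MafA peaks of Gcg, Npy and Cck include ones at the start, and all those of Ghrl and Sst lie away from it.

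**Figure D1:**
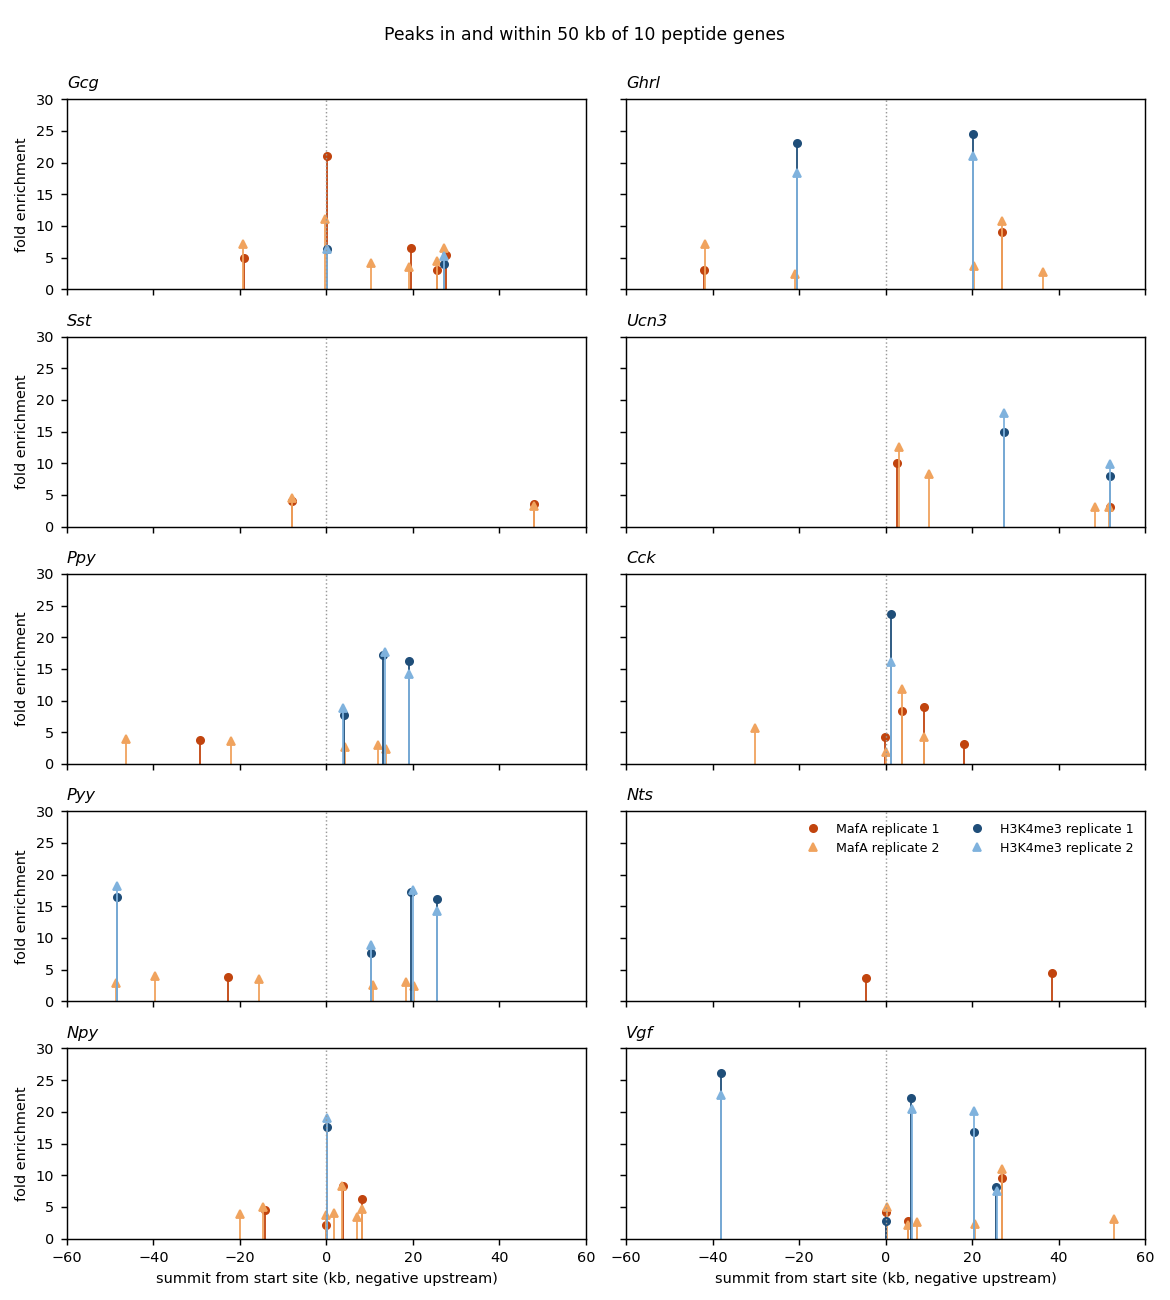
Fold enrichment (y axis) of every peak in the windows of the 10 genes against the distance of its summit from the nearest start site in kb (x axis, negative upstream; for Vgf, from the lower end of the gene). Points and lines are single peaks, with colour for the antibody and shape for the replicate; the highest MafA point, 21.0, lies at the start of Gcg, and no H3K4me3 peak was called in the windows of Sst or Nts.

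Gcg, the glucagon gene, had the MafA region with the highest mean of the list, through replicate 1; in replicate 2 its 11.1 was below Ucn3 and Cck. It lies on the minus strand of chromosome 2 from 62474530 to 62483653. The region ran from 62482685 to 62485606, over the start site and the promoter, and stood at the 95.5th percentile of all MafA regions. The peaks of replicates 1 and 2 reached 21.0 and 11.1 times the background, from 71 and 88 fragments over a modelled background of 2.43 and 5. Replicate 1 was the higher by fold enrichment, and its summit lay 109 bp inside the gene. The summit of replicate 2 lay 313 bp before the start. The mean of 16.1 ± 7.0 (SD, n = 2) therefore joins positions 422 bp apart. The peaks were 1024 and 2922 bp wide and did not overlap by 50% of the wider, so that the region was lost under that stricter rule, as were the other regions of Gcg.

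H3K4me3 at the start of Gcg was present and low. Its region, from 62482424 to 62483825, had fold enrichments of 6.32 and 6.43, from 64 and 28 fragments, and stood at the 18th percentile of H3K4me3 regions. The H3K4me3 summits lay 123 and 54 bp inside the gene. By comparison, the marks at Npy, Cck and Vgf had mean fold enrichments of 18.3, 19.9 and 21.3. The Gcg mark was 1402 bp long, against 5407, 4899 and 3882 bp for those.

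Gcg had 3 further MafA regions. One between 62455510 and 62456685, downstream of the gene, had values of 5.47 and 6.5 and overlapped a weak H3K4me3 region of 4.0 and 5.32. One at 62457959 to 62458681 had 3.10 and 4.41. The last, from 62502420 to 62503081, had 4.99 and 7.11 and lay inside the neighbouring gene Fap, 18767 bp from Gcg. All 3 were stronger in replicate 2, unlike the region at the start. Past the 50 kb limit, 68731 bp from Gcg and nearest to Dpp4, lay a stronger region of 19.0 and 18.9.

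Sst, which encodes somatostatin, the delta cell hormone that restrains insulin and glucagon release, had little of either signal. It lies on the minus strand of chromosome 16 from 23889573 to 23891342. No H3K4me3 peak was called within 50 kb in either library, and the same was true of Nts. Its MafA regions were weak. The nearer one, from 23898509 to 23899005, lay 7926 and 7937 bp before the start and had values of 4.05 and 4.53 from 22 and 49 fragments. The other lay 46183 bp beyond the gene, with 3.61 and 3.32. Replicates were close in both position and size, with summits 11 and 7 bp apart. The stronger of the pair stood at the 22.4th percentile of all MafA regions, and neither was among the 16020 strongest peaks of both libraries.

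Ghrl encodes ghrelin, the hormone of epsilon cells and of the stomach, and lies on chromosome 6 from 113716119 to 113719911. No MafA region was found in the gene or within 10 kb. The nearest lay 24991 bp away, from 113689800 to 113691128, inside Irak2, a kinase gene of interleukin signalling. Its fold enrichments were 9.02 and 10.7, from 46 and 85 fragments, with summits 42 bp apart. A weaker region inside Atp2b2, a calcium pump gene, had 3.10 in replicate 1 and 7.20 in replicate 2 and lay 41291 bp away. Neither overlapped an H3K4me3 region. The H3K4me3 regions in the window lay in Tatdn2 and Sec13, with means of 22.8 and 20.7, and none lay at Ghrl. These MafA regions were nearer to other genes, and the data do not assign them to a target.

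Ppy and Pyy, which encode pancreatic polypeptide and peptide YY, are neighbours on chromosome 11 (102099931 to 102101319 and 102106676 to 102107832), so their windows share most peaks. Neither had a MafA region in both replicates. MafA replicate 1 held 1 peak in both windows, with a fold enrichment of 3.81 from 18 fragments. Replicate 2 held 5 peaks near Ppy and 6 near Pyy, with values between 2.43 and 3.93, and none of them overlapped the replicate 1 peak. Those with the most fragments, 113 and 98, lay inside an H3K4me3 region of Mpp2 at modelled backgrounds of 34.2 and 23.5. The nearest region found in both lay 71821 bp from Ppy, with 4.10 and 2.31. H3K4me3 covered neither start. The nearest mark, from 102096767 to 102097915, lay 2016 bp past the 3′ end of Ppy with values of 7.64 and 8.83. Stronger marks of 17.4 and 15.2 (means) lay in Mpp2, a scaffold protein gene, 10316 and 16573 bp from Ppy. The Ppy promoter held a TGCTGAC match at -173 to -167, with no MafA peak there in either replicate.

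Npy, which encodes neuropeptide Y, had both readouts at its start. The gene lies on the plus strand of chromosome 6 from 49822710 to 49829507. H3K4me3 ran for 5407 bp, from 49821567 to 49826973, with values of 17.6 and 19.0 and summits 166 bp after the start in both replicates. Over the promoter MafA was weak by fold enrichment, with 2.17 and 3.70, although the summits held 56 and 182 fragments. The modelled background there was 25.3 and 36, the highest under any MafA summit of these regions in each replicate. The stronger region lay inside the gene from 49825843 to 49827145, with 8.31 and 8.32 from 73 and 177 fragments. Its values differed by less between replicates than those of any other of the 20 regions. It spanned the downstream edge of the H3K4me3 region, with summits 346 and 671 bp from that edge and 3751 and 3426 bp from the H3K4me3 summits. Regions outside the mark lay 1087 bp past the gene, with 6.24 and 4.74, and 13997 bp before it, with 4.46 and 5.01.

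Ucn3 encodes urocortin 3, which beta cells release with insulin and which acts on delta cells. The gene lies on chromosome 13 from 3940688 to 3945349. It carried a MafA region inside the gene and no H3K4me3 at its start. The region, from 3942011 to 3943160, had values of 10.1 and 12.6, from 30 and 86 fragments over a background of 2.08 and 4.17. It stood at the 88.8th percentile. The summits lay 2660 and 3081 bp after the start, inside the gene. A peak of 8.27 lying 5082 bp downstream of Ucn3 was called in replicate 2 and not in replicate 1. The remaining region, in Net1 and 46843 bp away, had 3.17 and 3.10 and lay over an H3K4me3 region with a mean of 8.94. That was the farthest region within the 50 kb limit, and the nearest one past it lay 51315 bp from Ghrl with 7.61 and 5.26.

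Cck encodes cholecystokinin, the gut hormone that drives pancreatic enzyme release. It lies on the minus strand of chromosome 9 from 121489824 to 121495694. H3K4me3 ran over the start and most of the gene for 4899 bp, with 23.7 and 16.0. MafA was weak over the promoter, with 4.2 in replicate 1 and 1.96 in replicate 2, and summits 349 bp apart. The strongest MafA region lay inside the gene from 121491519 to 121492665, with 8.28 and 11.8 from 77 and 220 fragments. Its summits lay 34 bp apart and 635 and 669 bp from the downstream edge of the H3K4me3 region. Another region, 2254 bp past the gene and outside the mark, had 9.05 in replicate 1 and 4.30 in replicate 2. Replicate 1 was thus the higher at the promoter and past the gene, and replicate 2 inside it. Requiring 50% reciprocal overlap removed the region inside the gene and left 6.67 as the highest mean.

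Nts, which encodes neurotensin, lies on chromosome 10 from 102481756 to 102490418 and had no H3K4me3 peak within 50 kb and no MafA region. MafA replicate 1 held 2 peaks, with 4.51 from 13 fragments and 3.69 from 11 fragments, and replicate 2 held none. The nearest region found in both lay 63641 bp away, with 5.10 and 5.68.

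Vgf encodes a granule protein of the granin type that is cut into neuropeptides. It lies on chromosome 5 from 137025301 to 137033351. The table of start sites does not list it, so distances are from the lower end of the gene. A MafA region at that end, from 137025356 to 137025872, had 4.25 and 5.01 from 45 and 86 fragments. H3K4me3 was called there in replicate 1 alone, at 2.72. The broad H3K4me3 region of the gene lay from 137029373 to 137033254, with 22.1 and 20.4, and held a weak MafA region of 2.77 and 2.07, at the 0.969th percentile. The strongest MafA region of the window, 10.3 ± 1.01 (SD, n = 2), lay 17358 bp past the upper end, from 137050709 to 137052707, with 49 and 102 fragments. It was nearer to Ap1s1, an adaptor gene of vesicle traffic, and overlapped an H3K4me3 region of 8.13 and 7.53. Its summits lay 633 and 669 bp outside that mark. With windows of 10 kb the highest mean at Vgf was 4.63.

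The strongest region of each gene was set beside those of the insulin and amylin genes, found with the same windows. The means were 36.7 ± 10.3 at Ins1, 17.8 ± 4.16 at Ins2 and 12.4 ± 2.70 at Iapp (SD, n = 2 each). That of Ins1 lay 9939 bp from the gene, and that of Ins2 over it. The peptide genes in order were Gcg 16.1 ± 7.0, Ucn3 11.3 ± 1.80, Vgf 10.3 ± 1.01, Cck 10.0 ± 2.49, Ghrl 9.88 ± 1.22, Npy 8.31 ± 0.00788 and Sst 4.29 ± 0.338. In replicate 2 alone the order began with Ucn3 at 12.6, Cck at 11.8 and Gcg at 11.1. From Gcg to Ghrl each gap between neighbours was smaller than the larger of their SDs. The Gcg replicates straddled the means of Iapp and Ins2. Sst lay below all others in both replicates. Ins1 had 2 regions in its window, Ins2 had 5 and Iapp had 6, against 2 to 4 for these peptide genes. By fragments the order changed, since Cck and Npy held 220 and 177 in replicate 2, more than the 88 of Gcg.

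**Figure D2:**
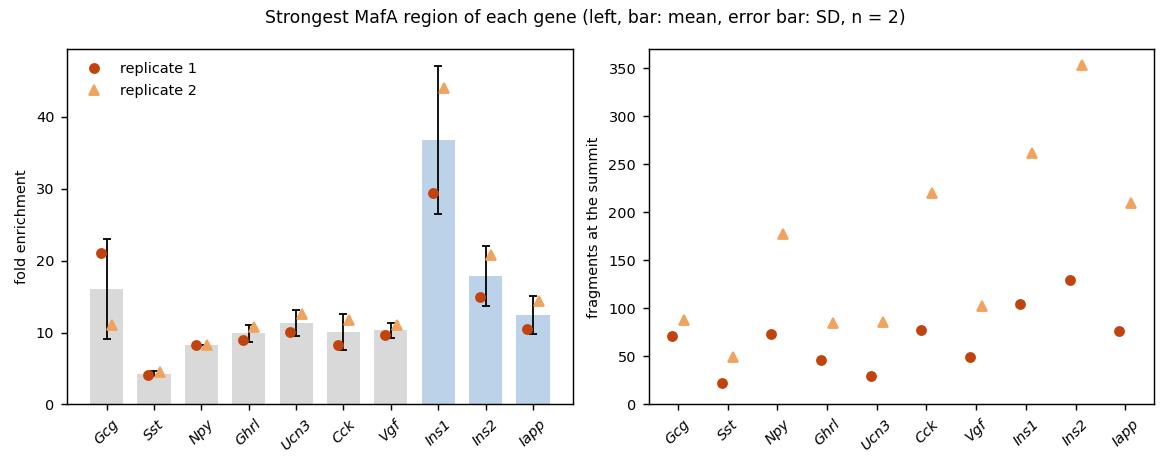
Fold enrichment (left; grey bars for peptide genes, blue for insulin and amylin genes, with mean and SD of 2 replicates) and fragments at the summit (right; points for single replicates) of the strongest MafA region of each gene. Gcg reaches 21.0 in replicate 1, Sst stays at 4.05 and 4.53, and Cck and Npy lead the peptide genes by fragments in replicate 2.

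Of the 20 regions, 9 overlapped an H3K4me3 region (45%), against 23.5% of all MafA regions. The latter include regions far from genes, and no share was counted for regions near genes alone. The 9 lay at Gcg, Npy, Cck and Vgf, 2 each, and in Net1 near Ucn3. Their median fold enrichment, 5.99, was above the 5.15 of the other 11. Over all MafA regions the order was the reverse, with 4.40 at H3K4me3 and 6.14 elsewhere. Fragments at the 9 had medians of 52 and 93 in replicates 1 and 2, against 23 and 49 at the other 11, and the modelled background was 8.42 and 14 against 3.51 and 5.0. Both MafA summits lay inside the H3K4me3 region in 6 of the 9, and in 93.9% of all 6078 such regions of the genome. Those 6 had mean fold enrichments of 2.42, 2.93, 3.08, 3.14, 8.31 and 10.0, and the rest of the 9 had 5.99, 10.3 and 16.1. The median of 5.99 thus depends on regions whose summits were not both inside the mark. The median distance between the MafA and H3K4me3 summits was 860 and 804 bp at the 9, against 322 and 262 bp over the genome. These few regions were not tested against the rest, since regions of 1 library are not replicates.

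**Figure D3:**
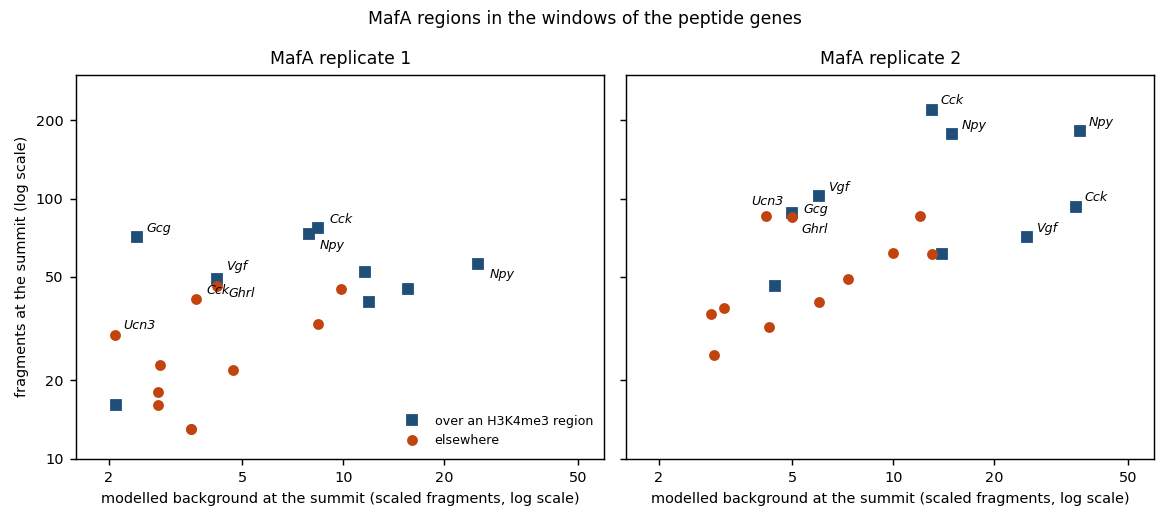
Fragments at the MafA summit (y axis, log scale) against the modelled background there in scaled fragments (x axis, log scale) for the 20 regions in the windows, one panel per replicate, with squares for regions over H3K4me3 and circles for the others. Gene names mark regions with a fold enrichment of at least 8 or a background above 20; Gcg stands at a low background of 2.43 in replicate 1, and the Npy promoter at the highest, 25.3.

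The number of peaks in the windows was compared between antibodies. MafA replicates 1 and 2 had 25 and 40 peaks and the H3K4me3 replicates 17 and 16, which gave 32.5 ± 10.6 against 16.5 ± 0.707 (mean ± SD, n = 2 each). The groups did not overlap, nor did they over the whole lists, with 33013 and 42747 MafA peaks against 16020 and 16904 for H3K4me3. The difference of 16 peaks in the windows had a two-sided exact permutation p of 0.33, and no smaller p is possible with 2 libraries a group. The direction turned, to -6 peaks, when the 16020 strongest peaks were taken from every library. That cut removes more of the longer MafA lists, and the reason for the reversal was not tested. Without MafA replicate 2 the difference was 8.5 peaks. Of the MafA peaks, 20 of 25 in replicate 1 and 20 of 40 in replicate 2 were matched in the other replicate, or 80% and 50%, beside 81.2% and 60.8% of all MafA peaks. Unmatched peaks were mostly weak, with medians of 3.81 and 3.29 against 4.73 and 5.01 for matched ones.

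Receptors for these peptides or their relatives were followed on a list of 21 genes. A MafA region lay within 50 kb of 17 of them and an H3K4me3 region at the start of 9, with a region of at least 10-fold near 5. The background shares were 66.1%, 57.0% and 19.5%. The 5 lay near Glp1r, the GLP-1 receptor that raises insulin release (25.9 and 25.4 in replicates 1 and 2), Crhr1, a receptor of the urocortin family (17.0 and 19.3), Sstr5, a somatostatin receptor (13.1 and 20.9), Cckar, the cholecystokinin A receptor (9.34 and 15.6), and Gcgr, the glucagon receptor (11.2 and 9.80). Each of these regions lay outside the gene, at distances from 16036 to 40369 bp. Crhr2, another receptor of the urocortin family, had a weaker region of 4.27 and 5.74 at 27234 bp and no H3K4me3 at its start. Sstr1, Npy2r, Npy6r and Cckbr had no region. Sort1, which binds neurotensin and sorts granule cargo, and Glp2r were the receptors with a MafA region within 1 kb of a start.

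A list of 7 genes held enzymes and partners that process such peptides. All 7 had an H3K4me3 region at the start (57.0% of all genes) and a MafA region within 50 kb (66.1%), and 4 had one of at least 10-fold (19.5%). These were Cpe, carboxypeptidase E, with 17.0 and 22.3, Scg5, the chaperone of prohormone convertase 2, with 12.9 and 12.9, Pcsk1, prohormone convertase 1/3, with 13.2 and 12.3, and Pam, the amidating enzyme, with 10.2 and 9.83. Those of Cpe, Scg5 and Pam lay inside or over the gene, and that of Pcsk1 lay 27481 bp away. Mboat4, which acylates ghrelin, had weak regions of at most 3.18 and 4.66, of which the strongest lay 29445 bp away. Pcsk2 had 3.77 in replicate 1 and 15.9 in replicate 2, so its mean rests on replicate 2. The plot of shares by list sets the peptide genes beside these lists. The lists were not matched for gene length, and a longer gene has a wider window. For genes up to 10 kb the MafA shares were 50.6% within 50 kb and 11.9% at 10-fold or more. None of the list shares was tested, since all lists were chosen with earlier results of these data known.

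**Figure D4:**
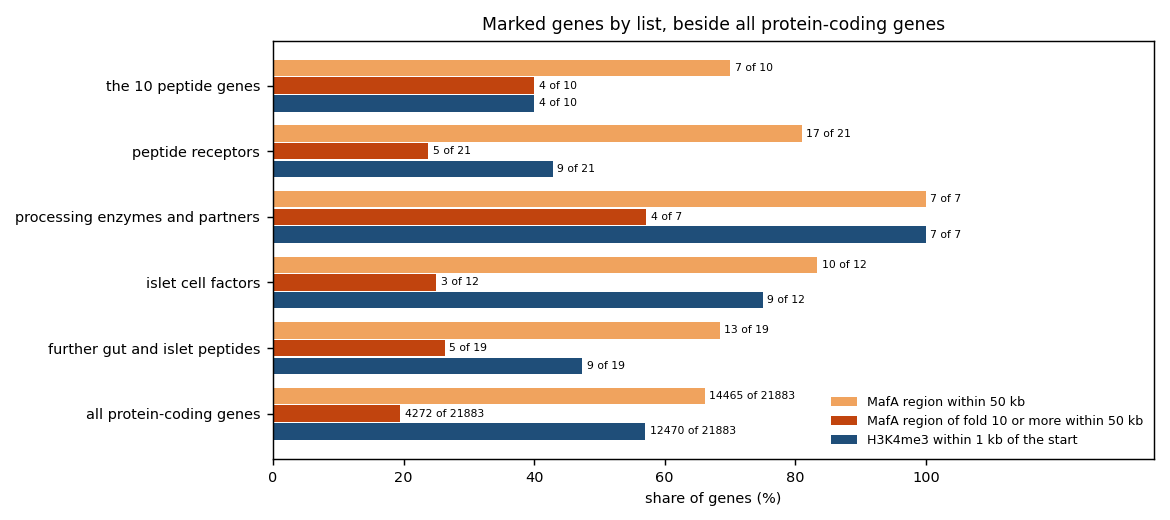
Share of genes in percent (x axis) with a MafA region within 50 kb, with a MafA region of fold enrichment 10 or more within 50 kb, and with H3K4me3 within 1 kb of the start, for the 10 peptide genes, 4 other lists and all protein-coding genes (y axis), with the counts printed at the bars. For MafA within 50 kb the peptide genes lie close to all genes (7 of 10 against 66.1%). At fold 10 or more they have 4 of 10 against 19.5%, a count that ranged from 1 to 5 over the settings. For H3K4me3 they have 4 of 10, against 7 of 7 processing enzymes, 57.0% of all genes and 38.5% of genes up to 10 kb (not drawn).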

How the data were processed

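CUT&RUN libraries of 500000 MIN6 cells each, permeabilised in 0.01% digitonin and sequenced as 150 bp pairs per the labels, were grouped by sample title. The authors deposited 4 MACS2 narrow peak lists on GRCm38 (mm10), each from 1 library, per the submitters' processing notes. Which aligner, control and MACS2 version were used, and how duplicates were handled, is not given in the sources used here. Deposited values are fold enrichment, a linear ratio with a pseudocount of 1, and p-values and q-values written as −log10 (lowest q 2.0). The deposited score was not used. Read totals are not stated in the lists.

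Tables were read with pandas 2.3.3 in Python 3.11.15, computed with scipy 1.17.1 and numpy 2.4.6, and plotted with matplotlib 3.10.9. Fragments came from solving fold enrichment and p-value for whole fragments times a scaling factor (0.415 and 0.997 for H3K4me3, 1 and 0.746 for MafA, replicates 1 and 2), within a relative tolerance of 0.0001. This solved 99.9% of peaks in H3K4me3 replicate 1 and 100% in the others, and was tested on simulated data. In MafA replicate 2 the background is in units of fragments times 0.746. The strongest peak of each replicate gave a region's values. Start sites came from RefSeq promoter windows on GRCm38.p6, and exons were not resolved. The planned motif search at summits became a search of promoters, since no genome sequence was used here.

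The 10 genes and all lists were chosen with earlier results of these data known. Named were the 10 genes, nearer neighbours of their regions, Ins1, Ins2, Iapp and members of the lists. Mln, on the list of further peptides, was not matched in the gene table. Some list members are not reported here by name. The settings changed were the q-value limit (−log10 q of 5 or more), 50% reciprocal overlap, the 16020 strongest peaks, windows of 10 and 100 kb, fragments in place of fold enrichment, each library left out and a replicate block.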

Additional observations from a re-analysis of the deposited data

How the results depend on the processing

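The number of peptide genes with a MafA region within 50 kb stayed between 6 and 10 over 7 alternatives, and the number with H3K4me3 at the start stayed at 4 over 6. The 20 distinct MafA regions became 10 with 50% reciprocal overlap, 7 among the strongest peaks, 11 with 10 kb and 44 with 100 kb windows, and 25 to 40 without a MafA replicate. Those over H3K4me3, 9 in all, became 4 with 50% overlap, 5 among the strongest peaks and 14 with 100 kb, and 8 to 18 without 1 library. These follow from fewer or more peaks entering. The difference in peaks between MafA and H3K4me3, 16, reversed to -6 among the strongest peaks and ranged from 8.5 to 23.5 without 1 library. With a replicate block it was 16 (exact permutation p = 0.5), and no label ties libraries of equal number to one another. These p-values cannot pass 0.05 and say nothing about stability. Of 39 values of the strongest region per gene under settings that kept both replicates, 31 moved by no more than the spread between replicates and 8 by more, and in 3 cases the gene lost its region: Gcg with 50% overlap, Sst among the strongest peaks and Ghrl within 10 kb. With n = 2, the value without 1 MafA replicate stays within that spread by construction where the region is the same, so those 14 values say nothing about stability. The number of genes at 10-fold or more, 4, ranged from 1 to 5 over all these settings. The alternatives listed for motifs at summits were not run. That count over settings and the 6-letter core were added after seeing the data.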

Other observations

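A list of 20 further gut and islet peptide genes, of which 19 were matched, was counted in the same way. A MafA region lay within 50 kb of 13 (66.1% of all genes) and an H3K4me3 region at the start of 9 (57.0%), and 5 had a region of at least 10-fold (19.5%). Scg2 and Chga, granin genes of dense-core granules, had 21.6 and 18.1 and 15.5 and 13.8 in replicates 1 and 2, each with 8 regions. The strongest regions lay 41046 bp from Scg2 and 21343 bp from Chga. Gal, which encodes galanin, had 11.4 and 15.0 at 36344 bp from the gene without H3K4me3 at its start, and Cartpt, the CART peptide gene, had 10.4 and 11.1 at 17633 bp with it. The fifth was Iapp. Gip, Vip, Adcyap1, Penk, Nmu and Crh had no region. Of these 6, Crh alone had H3K4me3 at its start.

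Among 12 transcription factors of islet cells, 10 had a MafA region within 50 kb (66.1% of all genes) and 9 had H3K4me3 at the start (57.0%). Hhex, a delta cell factor, had no H3K4me3 at the start and a region of 3.87 and 4.81. Irx2 had H3K4me3 at the start and no MafA region, and Pou3f4 had neither.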
